A study of Homo sapiens with 3 samples.

Results

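The lung adenocarcinoma lines HCC827, with mutated EGFR, and A549, with the wild-type receptor, were compared in the mRNA and circular RNA (circRNA) measurements of one RNA-Seq series. Of 20494 mRNA names used, the 13100 that were over 1 FPKM (fragments scaled to transcript length and library size) in either line were compared. Of 92509 circRNAs, the 2184 over 5 TPM (a share of all transcripts that sums to a fixed total in each line) in both lines were compared. Of the series' 3 samples, these 2 entered, and the line from normal lung was left out. The libraries are bulk RNA, in which fewer cells expressing a gene and less of it per cell cannot be told apart. Each line gave 1 library, so no spread between replicates could be measured, no test was run, and every difference given is one between 2 libraries. Both lines were grown in DMEM with 10% fetal bovine serum and antibiotics, with no treatment given in the labels, and total RNA was depleted of ribosomal RNA before sequencing on an Illumina HiSeq.

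A549 and HCC827 are established lines from different tumours. As background, A549 is known to carry mutations in STK11, KEAP1 and SMARCA4 and a loss of CDKN2A, while HCC827 is known for an in-frame deletion in the kinase domain of EGFR. EGFR status therefore cannot be told apart here from any other difference between the 2 lines. EGFR is a receptor tyrosine kinase that is activated by ligands such as amphiregulin and epiregulin, pairs with itself or with ERBB2 and ERBB3, and signals through RAS, RAF and MAPK and through PI3K and AKT. Some mutations in its kinase domain, such as the deletion known in HCC827, keep it active without ligand and make cells sensitive to EGFR inhibitors. Circular RNAs are closed loops that arise by back-splicing, in which a splice donor is ligated to an acceptor upstream of it, and each is named here with the gene it comes from, its host gene.

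On the scale of FPKM + 1, the levels of most mRNAs were close in both lines. The difference of log2(FPKM + 1), HCC827 minus A549, had a median of 0.02 with quartiles at -0.54 and 0.58, and 9670 of 13100 genes (73.8%) lay within 2-fold on the scale of FPKM + 1. At least 2-fold higher in HCC827 were 1808 genes (13.8%) and at least 2-fold lower 1622 (12.4%). At least 4-fold higher were 476 (3.63%) and at least 4-fold lower 400 (3.05%). These shares are the background against which the counts of gene groups below are read. A value of exactly 1 is shared by nearly all low genes in the deposited table and is called the floor here. Of the 13100 genes, 10172 were above the floor in both lines, 1510 were at the floor in A549 and 1418 at the floor in HCC827, and of the 476 and 400 genes, 247 and 208 were at the floor in the other line.

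A gene at the floor in 1 line was compared only because it was over 1 FPKM in the other, so the filter fixed its direction. The floor was not read as absence of a transcript. Genes that nearly every cell uses stood at it in 1 line, such as the ribosomal protein gene RPL29 (1 FPKM in A549, 127 in HCC827), the replication helicase subunit MCM7 (1 and 19.3) and the cytochrome oxidase subunit COX5A (57.6 and 1). Genes with near-identical copies can also share or lose reads. ACTB, which encodes beta-actin, was listed at 4.31 and 4.03 FPKM, whereas ACTG1, which encodes the nearly identical gamma-actin, was at 5448 and 2788. Values of GAPDH, FTL, KRT8, KRT18, AKR1C1 to AKR1C4, the HLA genes, ribosomal protein genes and histone genes are uncertain for the same reason.

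**Figure D1:**
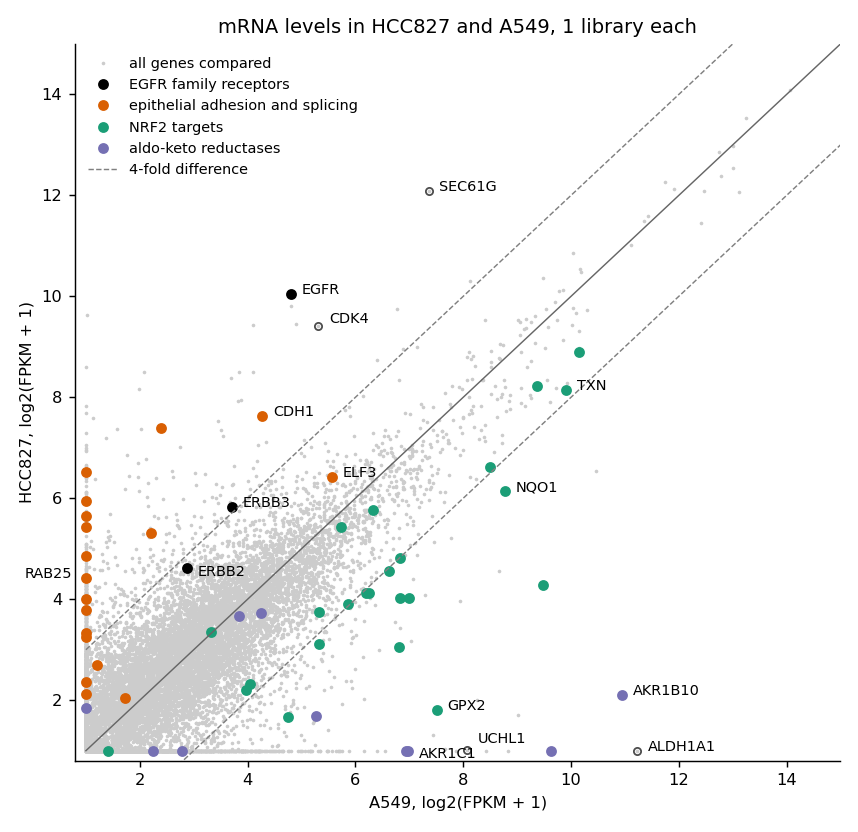
Each point is 1 of the genes compared, by its log2(FPKM + 1) in A549 (horizontal axis) and HCC827 (vertical axis), with members of 4 gene lists coloured and further genes circled. EGFR, at 27.0 and 1058 FPKM, lies far above the upper line of a 4-fold difference, and AKR1B10, at 1981 and 3.30 FPKM, far below the lower one.

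EGFR itself was among the 10 genes most raised in HCC827 of those above the floor in both lines. Its level was 27.0 FPKM in A549 and 1058 FPKM in HCC827, a difference of 5.24 on the log2 scale or 37.8-fold of FPKM + 1. Its partners were higher too. ERBB3, which binds neuregulins and recruits PI3K, was at 12.1 and 56.1 FPKM, and ERBB2, which has no known ligand and serves as the partner of the others, at 6.33 and 23.5. ERBB4 was at the floor in both lines. All 3 receptors compared were thus at least 2-fold higher in HCC827.

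The ligands were mixed. Epiregulin (EREG) was at 20.4 FPKM in A549 and 70.5 in HCC827, amphiregulin (AREG) at 21.5 and 46.3, and betacellulin (BTC) at the floor and 7.24. Neuregulin 1 (NRG1), a ligand of ERBB3 and ERBB4, stood at 15.9 in A549 and at the floor in HCC827. EGF and HBEGF were at the floor in both lines, and TGFA (1 and 2.34) and EPGN (2.18 and 1) were within 2-fold. Of 6 ligands compared, 3 were higher and 1 lower.

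Adaptors of the receptor showed few differences, with 2 of 11 higher and none lower and a median of 0.19. GRB2, SHC1 and PTPN11, which link the receptor to RAS, were at 21.2, 15.7 and 40.3 FPKM in A549 and at 17.9, 14.5 and 45.9 in HCC827. The 2 that were higher were ERRFI1 (also MIG6), an inhibitor that binds the EGFR kinase domain, at 42.2 and 135 FPKM, and the docking protein GAB1, at 1.03 and 4.26.

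Feedback regulators and targets of MAPK signalling moved both ways, with 5 of 18 higher, 3 lower and a median of 0.32. EGR1, an immediate early transcription factor, was at the floor in A549 and at 17.0 FPKM in HCC827, the AP-1 subunit FOSL1 at 4.59 and 38.1, PHLDA1 at 6.82 and 36.3, and the RAS pathway inhibitor SPRY1 at 1.46 and 22.9. Lower in HCC827 were the nuclear MAPK phosphatases DUSP4 (29.3 and 2.61) and DUSP5 (7.99 and 2.12) and the ETS factor ETV4 (16.8 and 3.71). The ERK phosphatase DUSP6 was at 6.31 and 12.4, MYC at 23.9 and 31.4, and CCND1, which encodes cyclin D1, at 60.6 and 42.0. These 3 were within 2-fold.

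Other receptor kinases differed in their choice rather than in number, with 3 of 14 higher and 4 lower. MET, the receptor of hepatocyte growth factor, was at 57.9 FPKM in A549 and 223 in HCC827, and its relative MST1R at the floor and 4.75. IGF1R was at 33.0 and 3.75, FGFR1 at 14.8 and 1.79, AXL at 10.3 and the floor, and FGFR4 at 8.87 and the floor. FGFR2, EPHA4, RET and PDGFRA were at the floor in both lines.

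Of 16 genes that are often mutated or lost in lung adenocarcinoma, 4 were higher in HCC827 and 2 lower. CDKN2A, which encodes the cell cycle inhibitors p16 and p14ARF, was at the floor in A549 and at 67.3 FPKM in HCC827. Its neighbours CDKN2B (1 and 4.03) and MTAP (2.61 and 27.1) were higher as well, and so was SMARCA4, the ATPase of the SWI/SNF complex (1 and 11.5). NF1, which switches RAS off, was at 10.6 and 2.22, and HRAS at 20.04 and 9.31. STK11 (3.99 and 4.93), KEAP1 (9.73 and 10.5) and NFE2L2 (27.8 and 37.6) were within 2-fold. The mRNA level of NFE2L2, which encodes NRF2, and of KEAP1, which marks NRF2 for degradation, thus differed little between the lines.

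The targets of p53 leaned the other way. Of 18 compared, 8 were lower in HCC827 and 1 higher, with a median of -0.72. The cell cycle inhibitor CDKN1A (p21) was at 15.1 FPKM in A549 and at the floor in HCC827, the DNA damage binding protein DDB2 at 22.7 and 1.74, ferredoxin reductase (FDXR) at 12.7 and the floor, MDM2, the ubiquitin ligase of p53, at 24.3 and 6.80, and the death effector BAX at 31.3 and 10.95. RRM2B, a ribonucleotide reductase subunit, was the exception at the floor and 6.03 FPKM. TNFRSF10B, a TRAIL receptor, was at 20.3 and 27.7.

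The group that was lower as a body was that of NRF2 targets. NRF2 is a transcription factor that KEAP1 holds at a low level in unstressed cells and that drives genes of glutathione and thioredoxin metabolism, NADPH supply and drug conjugation. Of 24 targets compared, 20 were at least 2-fold lower in HCC827 and none higher, and their median difference was -1.98 against 0.02 over all genes. Their FPKM summed to 5483 in A549 and 1510 in HCC827.

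Among them, the glutathione genes differed widely. GPX2, a glutathione peroxidase, was at 182 FPKM in A549 and 2.52 in HCC827. GCLC and GCLM, the catalytic and the modifier subunit of the enzyme that makes the first step of glutathione synthesis, were at 113 and 15.4 and at 15.4 and 3.99. Glutathione reductase (GSR) was at 98.1 and 22.5. In the thioredoxin system, thioredoxin (TXN) was at 963 and 282, peroxiredoxin 1 (PRDX1) at 658 and 298, and sulfiredoxin (SRXN1) at 127 and 15.2, while thioredoxin reductase (TXNRD1), at 79.0 and 53.2, was within 2-fold. The quinone reductase NQO1 was at 435 and 69.6, and heme oxygenase (HMOX1) at 26.0 and 2.17.

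PGD and ME1, which regenerate NADPH, were among the lower members. PGD, the phosphogluconate dehydrogenase of the pentose phosphate pathway, was at 716 FPKM in A549 and 18.3 in HCC827, a difference of -5.21. Transketolase (TKT), of the same pathway, was at 360 and 97.5, and malic enzyme (ME1) at 39.1 and 7.70. TALDO1, the transaldolase of the pentose phosphate pathway, was at 9.01 and 9.26. Besides TALDO1, TXNRD1, ABCC3 (52.2 and 41.9) and SLC7A11 (1.67 and the floor) were the members within 2-fold.

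NRF2 binds DNA with a small MAF protein at antioxidant response elements, whose core can be written TGACNNNGC. Promoter sequences from RefSeq (GRCh38.p14, 250 bases before to 50 after the first start listed for a gene) were at hand for 17 of the 24 targets and were searched on both strands. The core occurred in 6 of these 17 (GCLM, TXNRD1, GPX2, CBR1, ME1 and PGD) and in 3702 of all 27305 promoters (13.6%). The AP-1 motif TGANTCA, which can overlap the core, occurred in 2 of the 17 and in 7.76% of all promoters. In ME1 it began at the same base as 1 of the cores. Stretches of 5 of these promoters are shown, since they hold the core in genes of glutathione, thioredoxin and NADPH metabolism, with the core in capitals. Of these genes, TXNRD1 was within 2-fold between the lines. Where the core lies on the other strand, the capitals read GCNNNGTCA.
GCLM, chr1:93909416-93909504, minus strand: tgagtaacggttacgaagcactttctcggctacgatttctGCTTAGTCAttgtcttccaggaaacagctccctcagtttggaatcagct
GPX2, chr14:64942819-64942907, minus strand: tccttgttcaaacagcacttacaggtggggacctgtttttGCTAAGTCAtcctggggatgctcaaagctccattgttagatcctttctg
ME1, chr6:83431140-83431228, minus strand: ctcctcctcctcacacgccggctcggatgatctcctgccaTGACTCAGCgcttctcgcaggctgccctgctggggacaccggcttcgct
PGD, chr1:10398823-10398911, plus strand: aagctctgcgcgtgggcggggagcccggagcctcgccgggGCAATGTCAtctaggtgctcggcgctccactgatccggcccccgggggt
TXNRD1, chr12:104215640-104215819, plus strand: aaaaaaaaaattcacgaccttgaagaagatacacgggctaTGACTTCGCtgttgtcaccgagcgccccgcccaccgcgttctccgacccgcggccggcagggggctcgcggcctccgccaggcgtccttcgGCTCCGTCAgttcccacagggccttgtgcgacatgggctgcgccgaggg

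These matches describe letters in a window. TXNRD1, whose promoter held 2 cores, was within 2-fold between the lines, and NQO1 and SRXN1, which were lower in HCC827, held no core in their windows. ME1 held 2 cores as well, of which 1 is shown.

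The aldo-keto reductases, which reduce aldehydes and ketones with NADPH and several of which are known NRF2 targets, went further. Of 10 compared, 7 were lower in HCC827 and none higher, with a median of -2.68, and their FPKM summed to 3097 in A549 and 37.2 in HCC827. AKR1B10, which reduces retinal among other substrates, was at 1981 FPKM in A549 and 3.30 in HCC827, a difference of -8.85, the lowest of all genes above the floor in both lines. AKR1C2 (789), AKR1C1 (125) and AKR1C3 (122), reductases of steroids and prostaglandins, were at the floor in HCC827. AKR1A1 (17.9 and 12.3) and AKR7A2 (13.2 and 11.8) were within 2-fold, so that the family was not lower throughout. Over the 4 members above the floor in both lines, the median was -2.04.

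Of 9 aldehyde dehydrogenases compared, 7 were lower and 1 higher, with a median of -1.51. ALDH1A1, which makes retinoic acid, was at 2397 FPKM in A549 and at the floor in HCC827, a difference of -10.23 and the lowest of all genes at the floor in 1 line. ALDH3A1 (454) and ALDH3A2 (44.0) were also at the floor in HCC827. Its relative ALDH1A3, which makes the same product, went the opposite way at 4.41 and 62.1 FPKM. Over the 4 members above the floor in both lines, the median was -0.83.

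**Figure D2:**
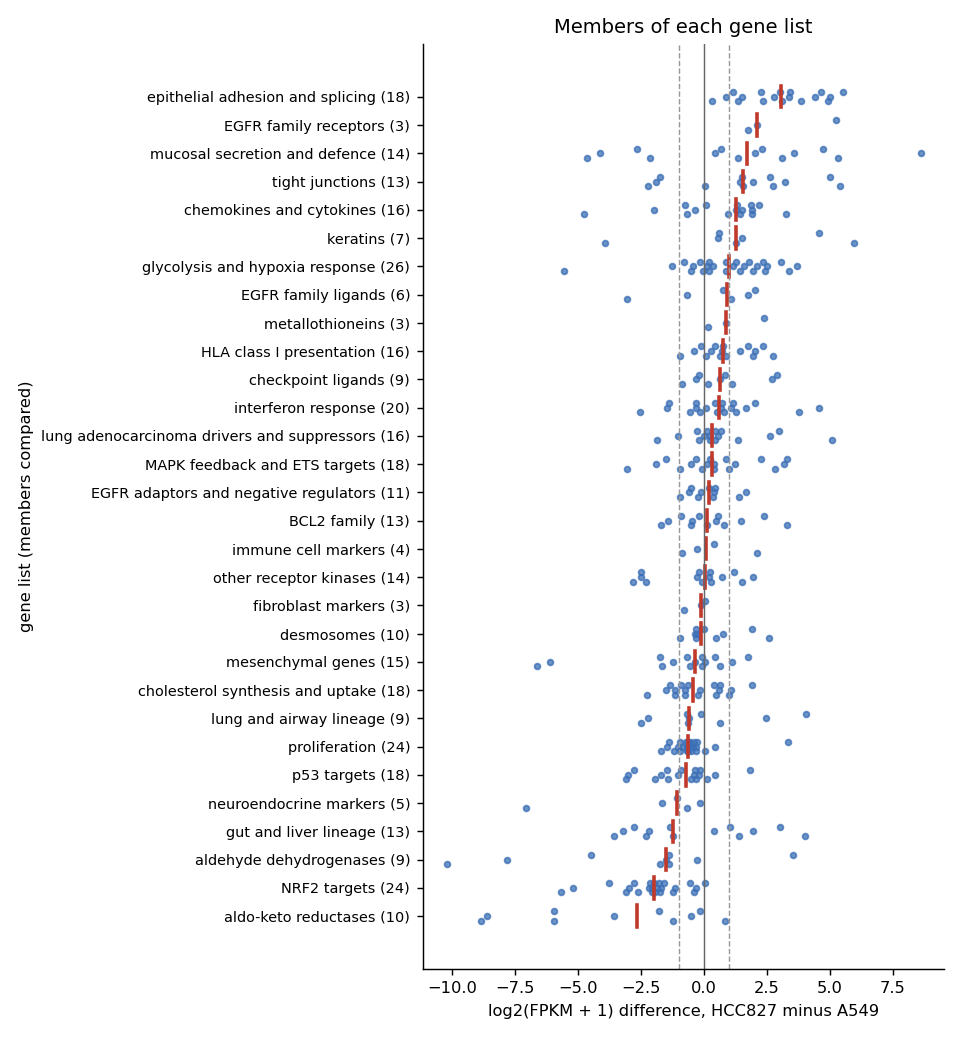
Each point is a gene, placed by its log2(FPKM + 1) difference, HCC827 minus A549, in the row of its list, with the number of members compared in brackets. Red bars are list medians, from -2.68 for aldo-keto reductases to 3.06 for epithelial adhesion and splicing, and dashed lines mark 2-fold differences.

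The epithelial genes were the counterpart. Epithelial cells are held together by E-cadherin, tight junctions and desmosomes, and the transcription factors GRHL2, OVOL1, OVOL2, ELF3 and EHF and the splicing regulators ESRP1 and ESRP2 keep this state, while ZEB1 and SNAI factors repress it. Of 18 genes of epithelial adhesion and splicing, 16 were at least 2-fold higher in HCC827 and none lower, with a median of 3.06, and 12 of them were at the floor in A549. E-cadherin (CDH1) was at 18.2 FPKM in A549 and 198 in HCC827, and the adhesion molecule EPCAM at 4.23 and 166. The membrane protease matriptase (ST14) was at the floor and 60.5, and its inhibitor SPINT1 at the floor and 27.9. ESRP1 was at the floor and 49.3, and ESRP2 at the floor and 15.1. ELF3 (46.2 and 84.7) and GRHL1 (2.30 and 3.12) were the 2 within 2-fold, so A549 held part of the epithelial factors at a similar level. Over the 6 members above the floor in both lines, the median was 2.30 and 4 were higher.

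Since ZEB1 and SNAI factors bind E-boxes written CACCTG, the promoters of the epithelial list were searched for these letters. Promoters were at hand for 8 of the 18 genes, and 4 of them (ELF3, RAB25, CRB3 and LAD1) held the motif on either strand, against 20.6% of all promoters. Those of 3 genes that were at the floor in A549 are shown, because RAB25, a GTPase of membrane recycling, CRB3, a polarity protein, and LAD1, a basement membrane anchor protein, stood at 20.4, 9.05 and 42.0 FPKM in HCC827. CACCTG, or CAGGTG where it lies on the other strand, is in capitals.
RAB25, chr1:156061079-156061164, plus strand: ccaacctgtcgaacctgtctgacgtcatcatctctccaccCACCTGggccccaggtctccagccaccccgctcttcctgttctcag
CRB3, chr19:6464021-6464256, plus strand: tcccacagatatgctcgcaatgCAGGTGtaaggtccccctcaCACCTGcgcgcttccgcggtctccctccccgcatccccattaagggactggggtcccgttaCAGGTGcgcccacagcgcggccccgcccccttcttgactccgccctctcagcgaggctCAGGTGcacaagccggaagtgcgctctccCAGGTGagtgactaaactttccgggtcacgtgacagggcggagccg
LAD1, chr1:201399314-201399425, minus strand: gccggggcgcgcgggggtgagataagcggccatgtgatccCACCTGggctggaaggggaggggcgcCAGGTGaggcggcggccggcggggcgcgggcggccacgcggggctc

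CRB3 held 5 matches in its window and LAD1 2. RAB25 also held 2, of which 1 is shown. ELF3, which held the motif too, was within 2-fold between the lines (46.2 and 84.7 FPKM). SPINT1, at the floor in A549 and 27.9 FPKM in HCC827, held no match in its window. No binding was measured in these lines.

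Tight junction genes were mostly higher, 9 of 13, with 3 lower and a median of 1.56. CLDN7 (83.5 FPKM) and CLDN4 (63.3), which seal the space between epithelial cells, were at the floor in A549, and CLDN12, cingulin (CGN) and the adhesion molecule F11R were at 7.08, 2.96 and 6.12 in A549 and at 49.3, 25.7 and 26.4 in HCC827. CLDN1 (27.2 and 5.04), CLDN2 (10.8 and 2.13) and the scaffold TJP1 (41.7 and 11.9) were lower. The claudins thus differed in both directions. Over the 8 members above the floor in both lines, 4 were higher, 3 lower and the median was 0.78.

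Desmosomal genes did not share this difference. Of 10 compared, 2 were higher, desmoglein 2 (DSG2, 30.6 and 118) and desmocollin 2 (DSC2, 1.74 and 15.2), none was lower and the median was -0.14. Of 7 keratins, 4 were higher and 1 lower. Over the 5 members above the floor in both lines, 2 were higher, 1 lower and the median was 0.59. KRT19, of simple epithelia, was at 28.7 and 697 FPKM, and KRT16, of stressed squamous epithelia, at the floor and 122. KRT8 was at 1419 and 91.6, with its partner KRT18 at 5.65 and 9.001.

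The mesenchymal list was not lower as a whole, with 5 of 15 lower, 2 higher and a median of -0.37. A few members differed by far. Vimentin (VIM), the intermediate filament of mesenchymal cells, was at 173 FPKM in A549 and 1.47 in HCC827, and S100A4, a calcium-binding protein of motile cells, at 201 and 1.04. ZEB1 (5.71) and N-cadherin (CDH2, 5.29) were at the floor in HCC827, and fibronectin (FN1) was at 94.8 and 39.4. The opposite held for TGFBI, a matrix protein induced by TGF-beta (58.5 and 197), and caveolin 1 (CAV1) was at 147 and 233. SNAI1, SNAI2 and TWIST2 were within 2-fold.

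Of 9 lung and airway lineage genes compared, 2 were higher in HCC827, 2 lower and 5 within 2-fold, FOXA1 (9.01 and 8.24 FPKM) among them. NKX2-1, the lung lineage factor of alveolar cells, was at the floor in A549 and at 9.92 FPKM in HCC827, and the aspartic protease napsin A (NAPSA), which processes surfactant protein, at 1.14 and 34.5. FOXA2 (10.4) and SOX9 (8.39) were at the floor in HCC827. All 5 surfactant protein genes listed and the club cell secretoglobin SCGB1A1 were at the floor in both lines.

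Genes of gut and liver were divided, with 5 of 13 higher and 7 lower. HNF4A, the urea cycle enzyme CPS1, complement C5 and apolipoprotein H were at 9.01, 17.6, 22.6 and 12.7 FPKM in A549 and at the floor in HCC827. HNF4G (1.31 and 17.7), antitrypsin (SERPINA1, the floor and 31.0) and the fibrinogen chain FGB (55.3 and 215) were higher in HCC827. The list's median was -1.22, and it turned to 1.38 when genes at the floor in 1 line were left out.

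Secreted defence proteins and mucins contained the largest single increase among genes above the floor in both lines. S100A9, a subunit of calprotectin, was at 1.03 FPKM in A549 and 792 in HCC827, a difference of 8.61, and its partner S100A8 at the floor and 16.3. LCN2, which binds bacterial iron carriers, was at 16.05 and 690.0, and the membrane mucin MUC1 at 2.93 and 102. The gel-forming mucin MUC5AC went from 49.2 in A549 to the floor in HCC827, whereas MUC5B was at 11.2 and 48.0. CEACAM6 (70.7 and 3.06) and AGR2, a disulfide isomerase of mucin production (132 and 20.3), were lower. Of 14 genes compared, 8 were higher and 4 lower, with a median of 1.69. Over the 8 members above the floor in both lines, 4 were higher, 2 lower and the median was 1.34.

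Genes through which tumour cells meet the immune system were, where they differed by 2-fold, mostly higher in HCC827. In the HLA class I list, 6 of 16 were higher and none lower, with a median of 0.75, among them HLA-B (the floor and 12.2 FPKM), the immunoproteasome subunits PSMB8 (4.48 and 26.7) and PSMB10 (7.81 and 22.98), the peptide transporter TAP2 (4.67 and 18.3) and the trimming peptidase ERAP2 (1.83 and 10.0). TAP1 was at 4.07 and 1.65. Among checkpoint ligands, 3 of 9 were higher and none lower. CD274, which encodes PD-L1, was at the floor in A549 and at 14.1 in HCC827, CD47, the signal that holds off phagocytes, at 10.5 and 73.5, and CD276 (B7-H3) at 8.78 and 20.4.

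Interferon-stimulated genes were not of one direction, with 7 of 20 higher, 3 lower and a median of 0.60. IFI44 was at the floor and 46.7 FPKM and the ubiquitin-like ISG15 at 1.59 and 34.1, while IFI35 (10.6 and the floor), OAS1 (11.9 and 3.67) and OAS3 (5.83 and 1.57) were lower. Of 16 chemokines and cytokines, 9 were higher and 2 lower, with a median of 1.29. Over the 11 members above the floor in both lines, 5 were higher, 1 lower and the median was 0.96. The neutrophil attractants CXCL1 (69.3 and 259) and IL8 (19.9 and 58.7), the growth factor CSF2 (the floor and 18.0) and CXCL16 (3.53 and 19.3) were higher, and the monocyte attractant CCL2 (53.1 and the floor) and IL18 (48.1 and 11.4) lower.

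In the glycolysis and hypoxia response, 13 of 26 genes were higher in HCC827 and 2 lower, with a median of 1.01. The angiogenic factor VEGFA was at 3.46 FPKM in A549 and 56.4 in HCC827, hexokinase 2 (HK2) at the floor and 19.6, the HIF prolyl hydroxylase EGLN3 at 3.48 and 36.5, PDK1, which closes pyruvate entry into mitochondria, at 1.49 and 12.4, and phosphoglycerate kinase (PGK1) at 83.3 and 429. The main enzymes of lower glycolysis ENO1 (831 and 948), PKM (613 and 423) and LDHA (877 and 1108) were within 2-fold. Carbonic anhydrase 12 (CA12) was at 92.7 and the floor, and glucose phosphate isomerase (GPI) at 212 and 86.5.

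Proliferation genes were slightly lower, with a median of -0.63, 5 of 24 at least 2-fold lower and 1 higher. Ki-67 (MKI67) was at 36.0 and 15.1 FPKM, BUB1, a kinase of the spindle checkpoint, at 9.22 and 2.15, and Aurora A (AURKA) at 17.2 and 5.48, while TOP2A (155 and 114) and FOXM1 (12.5 and 12.9) were within 2-fold. The 1 that was higher was MCM7, which stood at the floor in A549. Cholesterol synthesis and uptake had 2 of 18 higher and 5 lower, with IDI1 at 8.70 and the floor. In the BCL2 family, 3 of 13 were higher, MCL1 (15.9 and 45.1), BIK (1.88 and 14.1) and BMF (the floor and 18.4), and 2 lower, BAX and BID (8.38 and 1.84). Of 3 metallothioneins above the floor, MT2A was higher at 1.04 and 9.49.

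Most markers of other cell types were at the floor in both lines. Of 14 immune markers, 10 were at the floor in both lines, PTPRC, CD3E, CD4, CD8A and LYZ among them, and the summed level of the 4 compared was 11.6 FPKM in A549 and 33.1 in HCC827, of which CD68, a lysosomal protein, made up 5.98 and 29.1. Of 9 endothelial markers found, 8 were at the floor in both, and of 10 fibroblast markers 7. Neuroendocrine markers had 3 of 5 lower and none higher. UCHL1, a ubiquitin hydrolase of neurons that some lung tumours express, was at 268 in A549 and 1.02 in HCC827, while NEUROD1 and INSM1 were at the floor in both.

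The ends of the range also held genes of no list, histone genes among them. Among the 10 highest above the floor in both lines were the histone gene HIST1H2BH (1.19 and 193 FPKM), PDZK1IP1 (3.22 and 363 FPKM), the acute phase protein SAA1 (1.59 and 145), tissue factor (F3, 1.99 and 164), the retinoic acid binding protein CRABP2 (3.07 and 165) and the cell adhesion molecule DSCAML1 (1.24 and 82.5). Among those at the floor in A549 were the histone gene HIST1H4F (388), APOL1 (225), tenascin C (TNC, 156) and the beta-defensin DEFB4A (133). Among the lowest were clusterin (CLU, 516 and 2.28), the IGF-binding protein IGFBP4 (306 and 3.03) and FXYD2, a regulator of the sodium pump (37.3 and 1.15). At the floor in HCC827 were the histone gene HIST1H2BE (231), complexin 2 (CPLX2, 342), the Wnt antagonist DKK1 (129) and serglycin (SRGN, 84.0).

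Some differences came in runs along chromosomes. Genes compared were ordered by the RefSeq gene table, in which 12674 were placed, and medians were taken over each of 12352 overlapping runs of 15 neighbouring genes. The highest medians were 1.93 on chromosome 8 from MSC to HNF4G and 1.83 on chromosome 7 from GRB10 to ZNF736, each with 11 of 15 genes at least 2-fold higher. The second run holds EGFR. Its direct neighbours SEC61G (163 and 4354 FPKM), a subunit of the protein channel of the endoplasmic reticulum, LANCL2 (5.75 and 128) and VOPP1 (16.2 and 363) differed by 4.73, 4.26 and 4.40, close to the 5.24 of EGFR, while COBL on the near side (3.08 and 6.37) was within 2-fold. GBAS, in the same run, was lower, at 12.7 and 1.79 FPKM, a difference of -2.30.

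Near CDK4 on chromosome 12, high and unchanged genes alternated. CDK4, the partner of cyclin D1, was at 38.6 and 677 FPKM, OS9 at 26.8 and 897, PIP4K2C at 11.9 and 334, and TSPAN31 at 10.4 and 161. Between or beside them, METTL1 (7.73 and 11.9) and DTX3 (3.09 and 2.14) were within 2-fold, and B4GALNT1 was at 11.6 and the floor. LPCAT1 on chromosome 5, a lysophospholipid acyltransferase, was at 13.2 and 363 with CLPTM1L beside it at 22.4 and 19.7. LPCAT1 was named after its value was seen. DNA copy number was not measured here.

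The lowest run, with a median of -1.55, lay on chromosome 10 from LARP4B to NET1 and held the AKR1C genes. Several of its other members were lower too, such as PITRM1 (19.2 and 7.24 FPKM) and NET1 (16.2 and 4.21), and 11 of the 15 were at least 2-fold lower. Another run of that chromosome, from DHTKD1 to HSPA14, had a median of -1.31, and chromosome 10 as a whole, with 32 of 491 genes higher and 114 lower, had the lowest median of all chromosomes placed, -0.42. Chromosome 1, with 234 of 1283 higher and 71 lower, had the highest, 0.26.

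**Figure D3:**
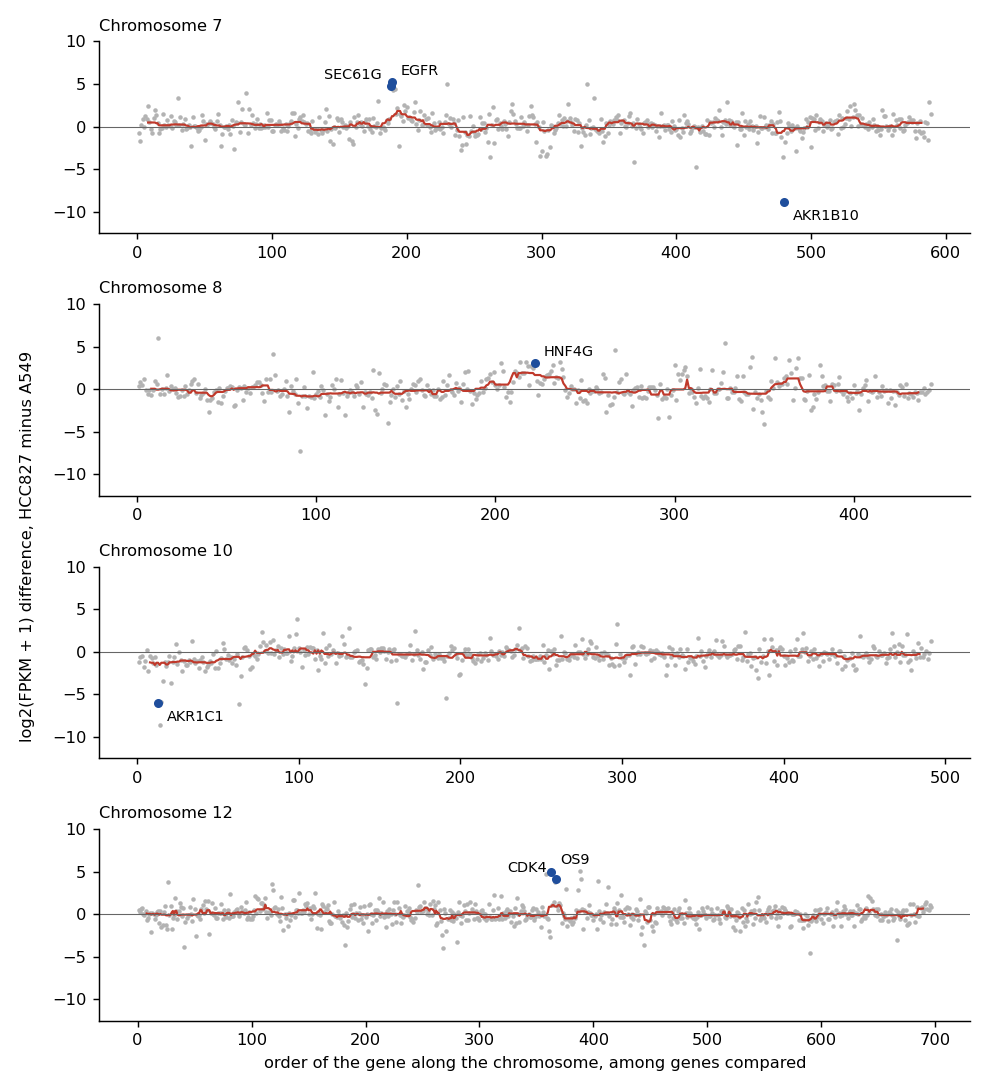
Genes compared on chromosomes 7, 8, 10 and 12 by their order along the chromosome (horizontal axis) and their log2(FPKM + 1) difference, HCC827 minus A549 (vertical axis), with the running median of 15 genes in red. The running median rises to 1.83 around EGFR and to 1.93 up to HNF4G, and lies low at the start of chromosome 10, where the AKR1C genes are.

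The circRNA values differed between the lines in how many circRNAs were listed above 0. In A549, 43950 circRNAs were above 0 and 20970 over 5 TPM. In HCC827, 4937 were above 0 and 4305 over 5 TPM. Of the circRNAs over 5 TPM in A549, 18716 (89.3%) were at 0 in HCC827, and of those over 5 TPM in HCC827, 1137 (26.4%) were at 0 in A549. The share of A549's circRNAs at 0 in HCC827 was 93.0% at 5 to 10 TPM and 54.9% over 500 TPM. Since TPM sums to the same total in each line, the values of a line with fewer listed circRNAs are spread over fewer of them. The number of reads behind the values is unknown, and whether the count of circRNAs moves with depth was not tested.

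In the 2184 circRNAs over 5 TPM in both lines, the ratio of HCC827 to A549 had a median of 3.44 with quartiles at 1.52 and 7.83, and 85.7% were higher in HCC827. Over 5-fold higher were 813 (37.2%) and over 5-fold lower 17 (0.778%). When the ratios were scaled to a median of 1, 241 were higher and 176 lower. A single circRNA's ratio is therefore set beside 3.44 here, but that median belongs to this filter. It was 4.27 at 1 TPM and 2.88 at 10 TPM in both lines. Over 5 TPM in either line with 1 TPM added, it was 0.08. Whether 3.44 holds alike for circRNAs of low and high TPM was not tested. The circRNAs of one host often overlap, so that reads can be divided among them in more than 1 way.

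**Figure D4:**
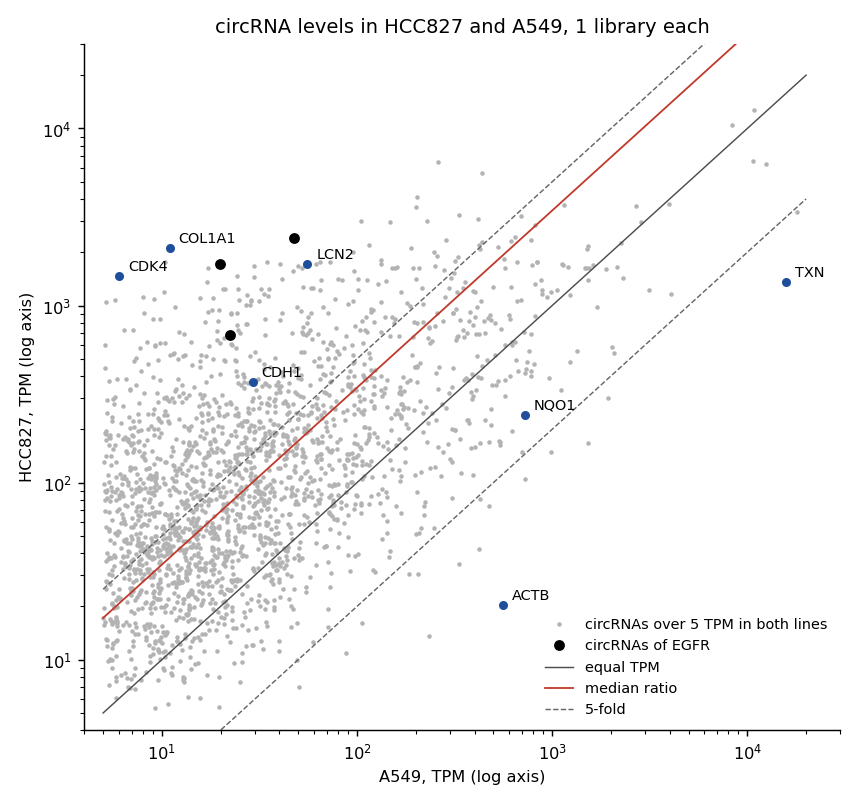
circRNAs over 5 TPM in both lines, by TPM in A549 (horizontal log axis) and HCC827 (vertical log axis), with equal TPM, the median ratio of 3.44 and 5-fold ratios as lines, the circRNAs of EGFR in black and circRNAs of other hosts in blue. Most points lie above equal TPM, and those of EGFR lie above the 5-fold line.

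Most circRNAs of EGFR were, like its mRNA, higher in HCC827. Of 8 over 5 TPM in either line, 6 were higher and 3 were over 5 TPM in both. hsa_circ_0080220, at chr7:55209978-55214433 on the plus strand (positions as in the circRNA table, hg19), had 47.7 TPM in the A549 library and 2395 in that of HCC827, which is 50.2 times as much. hsa_circ_0080222, at chr7:55214298-55225446, was at 19.95 and 1712, and hsa_circ_0080228, at chr7:55229191-55270318, at 22.3 and 683. All 3 ratios were over the median of 3.44. The remaining 5 were at or near 0 in 1 line, in either direction, such as hsa_circ_0080224 with 0 and 697 TPM and hsa_circ_0080221 with 17.9 and 0. For ERBB2, 2 circRNAs had ratios of 5.20 and 13.3 and 3 others were at 0 in HCC827.

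The 10 circRNAs with the highest ratios were all close to the 5 TPM filter in A549. Their A549 values lay between 5.11 TPM for that of GAPVD1 and 10.95 for that of COL1A1. The circRNA with the highest ratio came from CDK4. hsa_circ_0027319, at chr12:58143236-58144548 on the minus strand, had 6.03 TPM in A549 against 1465 in HCC827, with a ratio of 243, and that of PIP4K2C, hsa_circ_0027300, at 8.03 and 1116. Both hosts were themselves over 4-fold higher as mRNA. The log2 mRNA differences of the hosts of the other 8 of the 10 highest lay between -0.88 for USP8 and 2.34 for ZNF736 (1 and 9.13 FPKM). hsa_circ_0044569 of COL1A1, which encodes a collagen I chain, was at 10.95 and 2112 TPM with a host at 5.21 and 5.32 FPKM, and hsa_circ_0016470 of GPATCH2 at 10.4 and 1751 with a host at 4.94 and 6.16. For hsa_circ_0035221 of USP8, a deubiquitinase of endosomes that acts on EGFR, the values were 5.19 and 1049 TPM, with the host at 11.5 and 5.82 FPKM.

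Among the 10 lowest ratios were circRNAs of actin, tubulin, chaperone and ribosomal protein genes, whose mRNAs ranged from low to high. hsa_circ_0079267 of ACTB (4.31 and 4.03 FPKM as mRNA) was at 561 TPM in A549 and 20.3 in HCC827, hsa_circ_0033394 of HSP90AA1 at 233 and 13.6, hsa_circ_0046140 of ACTG1 at 1524 and 167, and hsa_circ_0026126 of TUBA1B at 727 and 105. hsa_circ_0087949 of TXN, the thioredoxin gene, was at 15717 and 1357, with its host mRNA at 963 and 282 FPKM. RPS2, RPL4, ACTN4, TMOD3 and GNAS were the other 5 hosts. In A549 these 10 circRNAs lay between 50.4 TPM for that of TMOD3 and 15717 for that of TXN.

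Most circRNAs of the gene groups with lower mRNA were at 0 in HCC827, as were most circRNAs of all genes. Aldo-keto reductase hosts had 20 circRNAs over 5 TPM in A549, with 10010 TPM in all, and all 20 were at 0 in HCC827. The highest were hsa_circ_0082477 of AKR1B10 at 3724 TPM and hsa_circ_0017540 of AKR1C2 at 1454. The 4 circRNAs of ALDH1A1, led by hsa_circ_0087206 at 6105 TPM, were likewise at 0 in HCC827. These counts stand beside the 89.3% of all A549 circRNAs over 5 TPM that were at 0 in HCC827. Of 91 circRNAs of NRF2 target hosts over 5 TPM in A549, 77 were at 0 in HCC827, a share below that over all. The 14 over 5 TPM in both lines had a median ratio of 0.51 against 3.44 over all compared. The circRNAs compared had a median of 24.0 TPM in A549, and the 14 were not matched to them in level. How far level enters this gap was not tested. Another 4 circRNAs of NRF2 target hosts were over 5 TPM in HCC827 and at 0 in A549, such as hsa_circ_0044618 of ABCC3 at 143 TPM. Not every circRNA was therefore lower. hsa_circ_0040081 of NQO1 was at 437 TPM in A549 and 5570 in HCC827, while NQO1 mRNA was lower in HCC827, and hsa_circ_0040083 of the same gene was at 724 and 240.

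For the epithelial list, 3 of 14 circRNAs were over 5 TPM in both lines. Those of CDH1, hsa_circ_0039995 and hsa_circ_0039990, were at 66.6 and 29.1 TPM in A549 and at 620 and 368 in HCC827. hsa_circ_0088731 of LCN2 was at 55.6 and 1715, a ratio of 30.8, and hsa_circ_0043600 of KRT19 at 20.7 and 491. Of circRNAs over 5 TPM in either line, 5 of 14 of the epithelial list, 7 of 14 of the mucosal list and 15 of 28 of keratin hosts were at 0 in HCC827. Over all circRNAs at that level, 18716 of 23091 were at 0 in HCC827, a larger share than in these 3 lists.

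Some of the most abundant circRNAs of one line were at 0 in the other although the host was present in both. hsa_circ_0035539 of ANXA2, which encodes a membrane-binding annexin, was at 4681 TPM in A549 and 0 in HCC827, and hsa_circ_0035562 of the same gene at 0 and 1892, with the mRNA at 1140 and 637 FPKM. hsa_circ_0025542 of MGST1, a microsomal glutathione transferase, was at 3707 and 0, with the mRNA at 537 and 479. hsa_circ_0012967 of RABGGTB was at 0 in A549 and 2754 in HCC827, and hsa_circ_0088072 of PTBP3 at 0 and 2378, with mRNA at 24.8 and 20.04. A zero in this table was therefore not accompanied by a missing host mRNA in these cases.

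Across the 1654 host genes with a circRNA compared, the log2 ratio of circRNAs and the log2 difference of mRNAs were weakly correlated (Spearman's rho 0.26, Pearson's r 0.27). The points are genes of the same 2 libraries and are not replicates. The median ratio was 1.44 over the 43 circRNAs whose host was at least 4-fold lower, 2.09 over the 162 with a host 2- to 4-fold lower, 3.37 over the 1546 with a host within 2-fold, 4.70 over the 212 with a host 2- to 4-fold higher and 8.94 over the 92 with a host over 4-fold higher. Of 773 circRNAs over 5-fold higher whose host was compared, 154 (19.9%) had a host at least 2-fold higher and 54 (6.99%) one at least 2-fold lower, against 14.8% and 9.98% of all 2055.

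**Figure D5:**
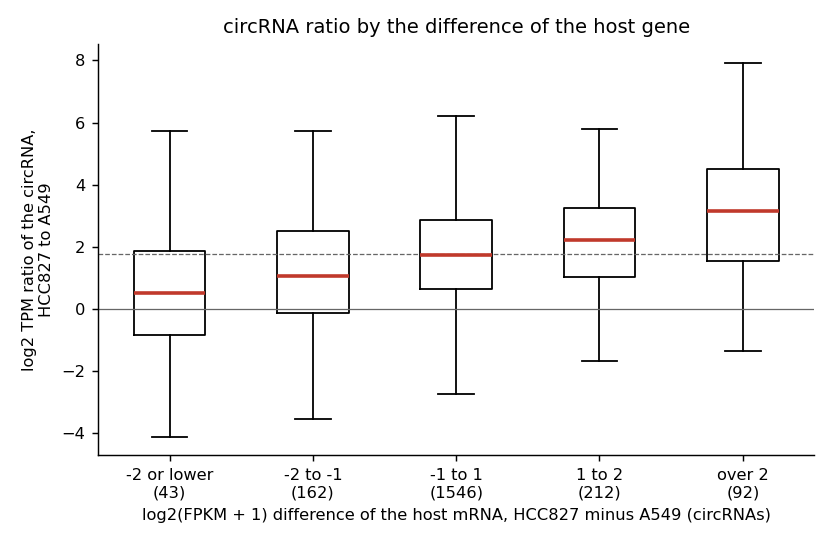
log2 TPM ratio of circRNAs, HCC827 to A549 (vertical axis), by the log2(FPKM + 1) difference of the host mRNA (horizontal axis, number of circRNAs in brackets). Boxes span the quartiles, red bars are medians, whiskers reach the last value within 1.5 box lengths, values beyond are not drawn, and the dashed line is the median ratio of 3.44. The medians go up from 1.44 to 8.94 as a ratio from left to right.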

How the data were processed

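RNA depleted of ribosomal RNA from 1 culture library per line was sequenced, and the deposited processed values were used. The deposited mRNA table holds FPKM, with nearly every low value set to 1. The study's methods name STAR and Cufflinks for them, with the mouse build mm10 although the lines are human, whereas the submitters' processing notes give hg19 as the build and name kallisto, sleuth and FastQC 0.11.7, with no step assigned to any. The deposited circRNA table holds TPM with positions on hg19, and which program the authors used for it is not given in the sources used here. The RNA extraction reagent also differs between the methods and the labels. The deposited fold columns hold the authors' own comparisons with the normal line and were not used, and the deposited predicted target tables repeat the FPKM values (24026 of 24032 rows equal) and were not used.

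Repeated names (117) and names that are numbers (28, some also repeated) were removed from the 20635 of the mRNA table. Differences are log2(FPKM + 1), HCC827 minus A549, over genes over 1 FPKM in either line, and circRNA ratios are TPM ratios over circRNAs over 5 TPM in both lines, with a 5-fold threshold. With 1 library per line there is no replicate error, no test and no p. FPKM and TPM keep no counts, so the depth is unknown and no interval is given. Total FPKM was 312407 in A549 and 299967 in HCC827.

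Gene lists (31 lists, 490 of 491 entries found, 4 by an older symbol) are described by counts of members past 2-fold and by medians. The members and lists were chosen with earlier results of these data known. Genes named are list members, the 10 at each end among genes above the floor in both lines and among genes at the floor in 1 line, the 10 circRNAs at each end, and the 10 highest in each line at 0 in the other. XIST and genes of chromosome Y are not named, and some list members are not reported here. Genes used as examples of the floor and of shared reads, neighbours of EGFR and CDK4, circRNAs of list genes and groups of histone, ribosomal and mitochondrial genes were chosen after values were seen. Promoters are from RefSeq on GRCh38.p14, and the order of genes is from the RefSeq gene table. The computation used Python 3.11.15, pandas 2.3.3, numpy 2.4.6 and matplotlib 3.10.9 and was tested on simulated data.

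Alternatives were pseudocounts of 0, 0.1 and 5 FPKM, filters at 1 FPKM in both lines, at 5 FPKM in either and none, centring on the median and scaling to the upper quartile, and for circRNAs levels of 1 and 10 TPM in both lines or 5 TPM in either with 1 TPM added, scaling to a median ratio of 1, and leaving out 12 circRNAs that share both values with another.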

Additional observations from a re-analysis of the deposited data

How the results depend on the processing

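No paired analysis was possible because each line has 1 library. Higher and lower mRNAs past 4-fold were 849 and 702 with no pseudocount, 788 and 663 with 0.1 FPKM, 173 and 128 with 5 FPKM, and 229 and 192 among genes over 1 FPKM in both lines. Past 2-fold they were 2444 and 2202 with no pseudocount and 785 and 729 with 5 FPKM. Among genes over 1 FPKM in both lines they were 1162 and 1054 past 2-fold. Under centring and upper-quartile scaling these 4 counts stayed within 1.5 times. With upper-quartile scaling, 1700 were higher and 1745 lower past 2-fold, so the excess of higher genes at that level depended on the scaling. circRNAs over 5-fold higher numbered 1320 at 1 TPM in both lines, 528 at 10 TPM, and 2723 against 18791 lower at 5 TPM in either line with 1 TPM added. They were 241 higher and 176 lower when scaled to a median ratio of 1. Of 246 list medians under the alternatives, 208 stayed within 1.5-fold, 37 moved further and 1 of those past 2-fold changed sign, that of gut and liver lineage, at 1.38 among genes over 1 FPKM in both lines. Of 492 list counts, 427 stayed within 1.5 times and 65 did not, most often where floor genes were left out or 5 FPKM was added. Of 300 values of the 40 genes at the ends, 93 moved by over 1.5-fold, 28 with no pseudocount, 28 with 0.1 FPKM and 37 with 5 FPKM, and none changed sign. With no replicates, no difference here has a spread to be set against.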

Other observations

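Histone genes, grouped by name after their values were seen, differed in both directions. Of 65 compared, 29 were at least 2-fold lower in HCC827 and 9 higher, with a median difference of -0.95, yet 8 were at least 4-fold higher and 5 at least 4-fold lower. HIST1H4F was at the floor of 1 FPKM in A549 and at 388 FPKM in HCC827, HIST1H3G at the floor and 204, HIST1H2BH at 1.19 and 193, and HIST1H2AE at 2.95 and 286. HIST1H2BE was at 231 in A549 and at the floor in HCC827, and HIST1H2BM at 403 and 22.5. The summed FPKM of the genes compared was 15246 in A549 and 9166 in HCC827. These genes are short and near-identical, so values of single members are uncertain.

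Of 78 ribosomal protein genes, 14 were at least 2-fold higher and 7 lower, with a median of 0.22. RPL7, which lies in the run of higher genes on chromosome 8, was at 280 and 1262 FPKM, and RPS27L, a p53-responsive relative of RPS27, at 34.9 and the floor. The 13 mitochondrially encoded genes made up 27.0% of summed FPKM in A549 and 26.4% in HCC827, and 1 of them, MT-CO3, was over 2-fold lower, at 8835 and 4305.

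A run of zinc finger genes on chromosome 19, from PPP2R1A to ZNF816, had a median difference of 1.27, with 11 of 15 genes at least 2-fold higher. Most of the 15 were at the floor in A549 and could only come out higher. Among these were ZNF528 (18.2 FPKM in HCC827), ZNF808 (10.2) and ZNF83 (6.39). Of those above the floor in both lines, PPP2R1A (1.69 and 10.5) and ZNF611 (1.46 and 4.76) were higher. ZNF766 (7.20 and 5.12), ZNF480 (10.3 and 8.03) and ZNF880 (1.82 and 2.15) were within 2-fold.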
